A study of Homo sapiens with 6 samples.

Results

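Keratins are the intermediate filament proteins of epithelial cells. A keratin filament is built from pairs of an acidic type I chain and a basic type II chain, so each chain needs a partner of the other type. In the mammary gland the luminal cells that face the lumen carry the simple keratins KRT8 and KRT18, with KRT7 and KRT19, whereas the basal layer carries KRT5, KRT14 and KRT17. Antibodies against these chains are used to sort breast tumors into luminal and basal kinds. The 10 keratin genes examined here were taken by name: the simple keratins KRT7, KRT8, KRT18 and KRT19, the basal keratins KRT5, KRT14 and KRT17, and KRT80, KRT81 and KRT86, type II chains that belong to neither group. They are 10 of 55 keratin genes and of 37887 gene rows in the count table.

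RNA was measured in MDA-MB-436, an established BRCA1-mutant line derived from a human triple-negative breast cancer. All 6 libraries came from MDA-MB-436 cells carrying a stable tet-inducible shRNA vector against MUC1. Control cells received 0.1% DMSO as the vehicle and shMUC1 cells received 500 ng/ml doxycycline, with 3 libraries in each group from triplicate cultures. The titles of the control samples name a control shRNA, while the treatment labels and the design text describe vehicle on the MUC1 shRNA cells, and this second reading was used. A library with a control shRNA and doxycycline was not analysed here, so doxycycline itself and MUC1 silencing cannot be told apart. The time in doxycycline is not given in the labels, and both groups are 1 cell line with 1 shRNA vector.

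The targeted gene was lower in the doxycycline group. MUC1, a transmembrane mucin, was at 4.24, 3.45 and 3.95 counts per 1000000 counts (CPM) in the control libraries and at 2.61, 1.98 and 1.83 CPM in the shMUC1 libraries. The ranges did not overlap, and the log2 fold change was -0.84 (SE 0.214, edgeR adjusted p = 0.00119). Library totals ran from 18678307 to 27825546 counts, with the smallest in shMUC1 replicate 3. A gene with no reads therefore had a floor of 3 counts, equal to 0.109 to 0.161 CPM per library. Between 68.8% and 70.5% of the values from 1 to 20 were even numbers, as happens when both mates of a read pair are counted, and counting intervals on small values are then too narrow. They cover counting error only.

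The simple keratins KRT8 and KRT18 were the 2 most abundant keratins in every library, and both were about doubled in shMUC1 cells. Together with KRT80, which rose less, they held most keratin RNA of the line. KRT7 was low and did not pass the test, and KRT19 was close to absent. Of the basal keratins, KRT17 was higher at a very low level, while KRT5 and KRT14 had too few counts to be tested. Of the 10 genes, 5 had enough counts to be tested, and KRT17 was among these only because of its shMUC1 counts. Of these 5, 4 passed an adjusted p under 0.05 with higher levels, where 25.2% of all 15355 tested genes were higher, and 0 were lower, where 23.6% were lower. The count of lower keratins was also 0 at an unadjusted p under 0.05 in edgeR, and 0 with DESeq2 and with limma-voom. With a fold change over 2 as well, 2 were higher (KRT18 and KRT17) and 0 lower, beside 2.21% and 3.74% of all tested genes. The groups did not overlap for 4 of the 5, all higher in shMUC1, beside 28.1% of tested genes in that direction and 26.8% in the other.

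**Figure D1:**
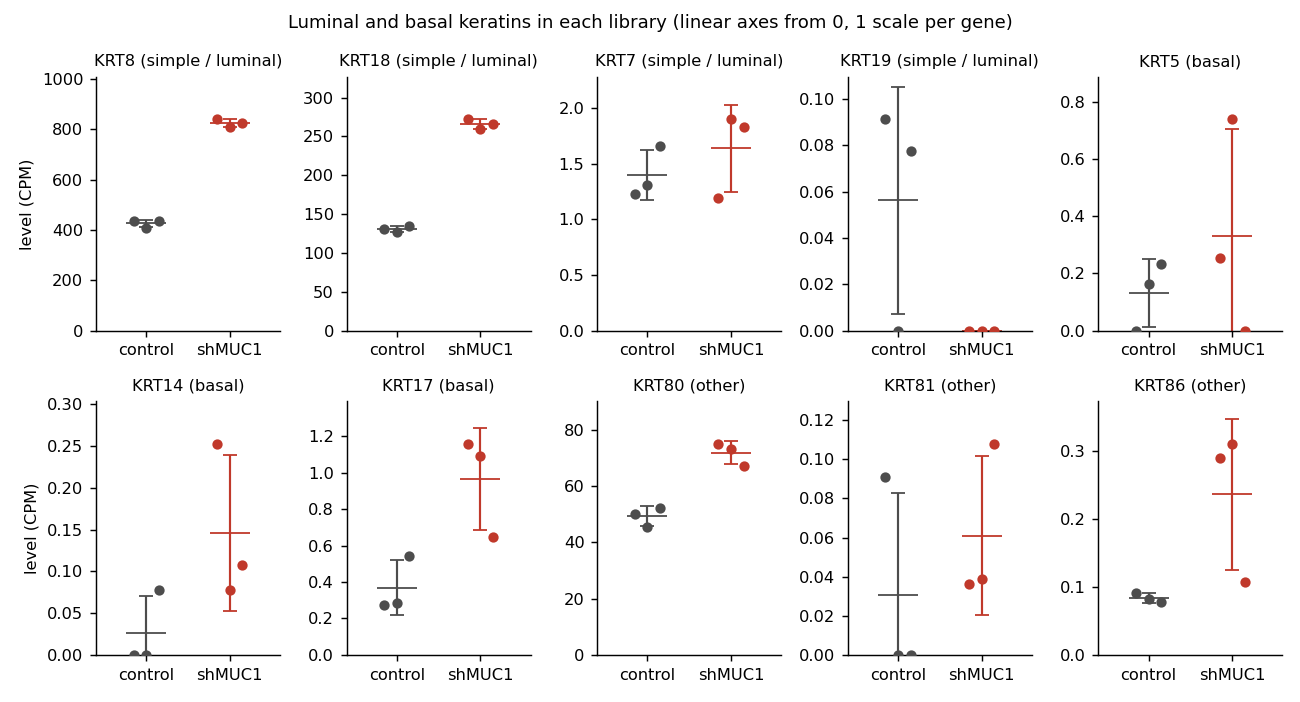
Level of each of the 10 keratins in CPM (linear vertical axes that start at 0, 1 scale per gene) in the 3 control (grey) and 3 shMUC1 (red) libraries. Points are libraries, the horizontal line is the group mean and the bar the SD, cut at 0. KRT8 lies at 409 to 436 CPM in control and 811 to 840 CPM in shMUC1, while KRT5, KRT14, KRT19, KRT81 and KRT86 stay under 1 CPM in every library.

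KRT8 is the type II chain of simple epithelia and of luminal cells. It lies on the minus strand at chr12:52897187-52949954 (GRCh38, GENCODE 29). Its counts were 9516, 9965 and 11264 for control replicates 1 to 3 and 23209, 20880 and 15338 for shMUC1 replicates 1 to 3. Scaled for library size, these became 434, 409 and 436 CPM in control and 840, 811 and 824 CPM in shMUC1 cells. The groups were far apart and the libraries within a group lay close together, with 426 ± 15 CPM in control and 825 ± 14.6 CPM in shMUC1 (SD, n = 3 each). The log2 fold change was 0.95 (SE 0.0307, edgeR adjusted p = 1.05e-24), a 1.93-fold higher level that just missed 2-fold. In bulk RNA, more cells that carry a keratin and more of its RNA per cell cannot be told apart.

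KRT18 is the type I chain with which KRT8 forms filaments, and its gene is the neighbor of KRT8, on the plus strand at chr12:52948871-52952901. It is the only type I keratin in the type II cluster of chromosome 12. Counts were 2867, 3093 and 3487 in the control replicates, against 7528, 6702 and 4954 after doxycycline. In CPM, KRT18 was at 131, 127 and 135 and then at 272, 260 and 266. Like KRT8, it doubled with no overlap between groups, from 131 ± 4.01 to 266 ± 6.11 CPM (SD, n = 3 each), with a log2 fold change of 1.02 (SE 0.0366, edgeR adjusted p = 2.53e-23). Its 2.03-fold change lay just over 2-fold while that of KRT8 lay just under it. The difference between these log2 values was not tested. The annotated exons of KRT8 and KRT18 overlap on opposite strands. The kit marks strand, but the strand setting of the counting was not given in the sources used here, so reads in that overlap could have been given to either gene.

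Both genes also have many processed copies elsewhere in the genome. Of the 50-base windows of the KRT8 principal transcript, 39.7% occur unchanged in transcripts of 36 other genes, and for KRT18 the value is 35.1% over 43 other genes.

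Few reads were placed on such copies in these libraries. The 50 KRT8 pseudogene rows summed to 317, 289 and 381 counts in control and 565, 447 and 425 counts in shMUC1, which is 2.14% to 3.38% of the KRT8 count of the same library. The 66 KRT18 pseudogene rows summed to 144, 208 and 187 counts in control and 209, 159 and 112 counts in shMUC1, or 2.26% to 6.72% of the KRT18 count. Of 6 tested KRT8 copies 1 was higher, KRT8P3, and of 5 tested KRT18 copies KRT18P65 was higher and KRT18P17 lower. Of all tested genes, 25.2% were higher and 23.6% lower. KRT18P65 had enough counts to be tested only because of its shMUC1 counts. With the copies added to their parents, KRT18 had the lowest log2 fold change of any alternative, 0.98, which is under 2-fold, so its call at that fold change was lost. KRT8 was at 0.94, and both genes still passed the adjusted p. How reads that match a parent and a copy equally well were treated was not given in the sources used here, so the levels of KRT8 and KRT18 are uncertain to that extent.

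The other simple keratins were sparse. KRT7, a type II chain of ducts and glands (plus strand, chr12:52232520-52252186), had 27, 32 and 43 counts in control and 33, 49 and 34 counts in shMUC1. Its level was 1.4 ± 0.23 CPM in control and 1.64 ± 0.389 CPM in shMUC1 (SD, n = 3 each), with overlapping libraries. The log2 fold change of 0.21 (SE 0.306, edgeR adjusted p = 0.608) was smaller than its error. Exons of KRT7-AS and KRT87P overlap KRT7 on the opposite strand. KRT19, the smallest type I keratin and a usual marker of luminal cells (minus strand, chr17:41523617-41528308), had 2, 0 and 2 counts in control. It had 0 counts in all 3 shMUC1 libraries, which allows up to 0.0417 CPM over the group. KRT19 did not reach the count minimum for a test (edgeR adjusted p = 0.316 when no filter was used). A change in KRT19 was not detectable at this depth.

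All 3 basal keratins were near the limit of detection in both groups. KRT17, a type I chain of basal cells, skin appendages and wounded epidermis (minus strand, chr17:41619441-41624842), had 6, 7 and 14 counts in control and 32, 28 and 12 counts in shMUC1. That is 0.274, 0.287 and 0.542 CPM against 1.16, 1.09 and 0.645 CPM. The groups did not overlap, but control replicate 3 and shMUC1 replicate 3 lay close to each other. The mean went from 0.368 ± 0.151 to 0.963 ± 0.278 CPM (SD, n = 3 each), and the log2 fold change was 1.39 (SE 0.453, edgeR adjusted p = 0.0107). KRT17 passed the low-count filter through its shMUC1 libraries alone, so a gene at this level could be tested only if it was higher there. The call was lost when 1 of 3 libraries was left out: without control replicate 1 the log2 fold change was 1.22 (edgeR adjusted p = 0.0516), without control replicate 2 it was 1.23 (adjusted p = 0.0527) and without shMUC1 replicate 1 the adjusted p was 0.0656.

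KRT5 and KRT14, the type II and type I chains that pair in basal cells, did not reach the filter. KRT5 (minus strand, chr12:52514575-52520687) had 0, 4 and 6 counts in control and 7, 19 and 0 counts in shMUC1, so shMUC1 libraries were both the highest and among the lowest. The ratio of its summed counts was 2.6 (95% counting interval 1.22 to 6.05). KRT14 (minus strand, chr17:41582279-41586921) had 0, 0 and 2 counts in control and 7, 2 and 2 counts in shMUC1, a ratio of 5.51 (95% counting interval 1.2 to 51.2). These intervals take no account of the spread between libraries, which for KRT5 was as large as the difference between groups. When edgeR was run with no filter, the adjusted p was 0.277 for KRT5 and 0.322 for KRT14.

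Counts of KRT14 and KRT17 depend on how reads from near-identical stretches were placed. Of the KRT14 windows of 50 bases, 23.8% were shared with other genes, most with KRT16, and of the KRT17 windows 17.4%, most with KRT17P1. The first 60 coding bases of the 2 genes are alike but not identical, with capitals at the 6 bases of KRT14 that differ from KRT17 (GENCODE 29). These differences leave no unchanged window of 50 bases within the stretch, so it is not one of the shared windows.
KRT17: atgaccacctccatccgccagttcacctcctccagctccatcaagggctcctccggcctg
KRT14: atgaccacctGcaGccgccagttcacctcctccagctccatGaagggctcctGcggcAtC

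KRT80 was the third most abundant keratin and rose less than KRT8 and KRT18. It is a type II chain found at desmosomes and at the cell margin (minus strand, chr12:52168996-52192000). It had 1096, 1104 and 1352 counts in control and 2071, 1888 and 1248 counts in shMUC1. In CPM these were 50, 45.3 and 52.3 against 75, 73.3 and 67.1, with every shMUC1 library above every control library. The mean rose from 49.2 ± 3.57 to 71.8 ± 4.15 CPM (SD, n = 3 each), and the log2 fold change was 0.55 (SE 0.0568, edgeR adjusted p = 2.6e-10). KRT80 shares 0.42% of its windows with other genes, so copies hardly touch its count.

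The hair keratins KRT81 and KRT86, which form the hair cortex and have been detected in breast cancer cells, were at a handful of counts. KRT81 (minus strand, chr12:52285913-52291534) had 2, 0 and 0 counts in control and 1, 1 and 2 counts in shMUC1, a ratio of 2 (95% counting interval 0.287 to 22.1). KRT86 (plus strand, chr12:52249300-52309163) had 2, 2 and 2 counts in control and 8, 8 and 2 counts in shMUC1, a ratio of 3.01 (95% counting interval 1.14 to 9.25). Neither was tested, and without a filter the edgeR adjusted p was 0.777 and 0.376. The 2 genes share 38.4% of the KRT81 windows and 35.3% of the KRT86 windows, and KRT86 also overlaps AC021066.3 on its own strand.

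To compare keratins with each other, CPM was divided by the length of the principal transcript (CPM per kilobase). In control cells the order of mean levels per kilobase was KRT8 at 243, KRT18 at 92.2, KRT80 at 12.8, KRT10 at 4.18, KRT7 at 0.8, KRT15 at 0.761, KRT34 at 0.541, KRT17 at 0.242 and KRT16 at 0.133. The steps from KRT8 to KRT18, KRT80, KRT10 and KRT7 were larger than the spread between libraries, while from KRT7 to KRT16 each gene overlapped its neighbor in the order. KRT5, KRT6A, KRT19, KRT86, KRT81 and KRT14 followed, all at 0.0522 CPM per kilobase or less, and could not be ordered. In shMUC1 cells the order began with KRT8 at 470, KRT18 at 188, KRT80 at 18.6 and KRT10 at 3.56, and then came KRT6A at 2.7, KRT34 at 2.36 and KRT15 at 2.32, which overlapped. KRT7 at 0.936, KRT17 at 0.635 and KRT16 at 0.433 came after these, with overlap between KRT7 and KRT17 and between KRT17 and KRT16.

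**Figure D2:**
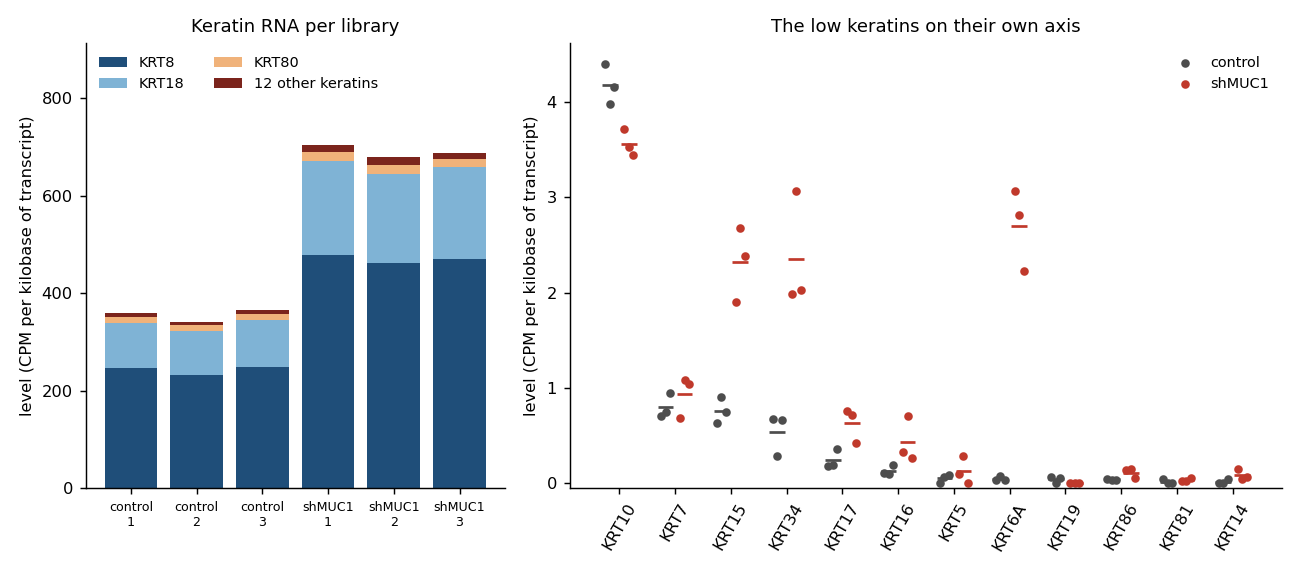
Left, keratin RNA in each library as stacked levels in CPM per kilobase of the principal transcript (axis from 0) for KRT8, KRT18, KRT80 and the sum of 12 other keratins. Right, the 12 low keratins on an axis of their own, with points for libraries and a line for the group mean. KRT8 and KRT18 make up 94.4% of the control total and 95.3% of the shMUC1 total, and KRT6A goes from 0.048 to 2.7 CPM per kilobase.

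Keratin RNA about doubled as a whole, from 0.0596% to 0.0647% of all counts in control libraries to 0.116% to 0.121% in shMUC1 libraries. The largest shares moved little. KRT8 and KRT18 together held 94.4% ± 0.21 of the keratin total per kilobase in control and 95.3% ± 0.371 in shMUC1 (SD, n = 3 each), and KRT80 held 3.59% ± 0.137 and 2.7% ± 0.144. The share of KRT80 went down while its own level went up, since KRT8 and KRT18 rose more. The wound and stress keratins KRT6A, KRT16 and KRT17 together held a small share, at 0.119% ± 0.0352 in control and 0.546% ± 0.106 in shMUC1 (SD, n = 3 each). All 3 had enough counts to be tested only because of their shMUC1 counts, so this sum is no separate sign of a rise. Most of it in shMUC1 was KRT6A, at 2.7 CPM per kilobase beside 0.635 for KRT17 and 0.433 for KRT16. Type I chains summed to 98.4, 95.1 and 102 CPM per kilobase in control and 201, 194 and 196 in shMUC1, and type II chains to 261, 246 and 263 and to 502, 486 and 491. The type I sum per type II sum was 0.383 ± 0.00563 in control and 0.4 ± 0.000206 in shMUC1 (SD, n = 3 each), so the excess of type II RNA over type I RNA was kept. KRT8 per KRT18 went from 2.64 ± 0.0436 to 2.51 ± 0.0132. These ratios are descriptions with no test, and they rest on 1 annotated transcript length per gene.

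The simple keratins outweighed the basal keratins by orders of magnitude in both groups. Summed per kilobase, KRT7, KRT8, KRT18 and KRT19 were at 336 ± 11.2 in control and 659 ± 12.4 in shMUC1, whereas KRT5, KRT14 and KRT17 were at 0.31 ± 0.165 and 0.854 ± 0.316 (SD, n = 3 each). By library the basal sum was 0.18, 0.254 and 0.496 CPM per kilobase in control and 1.02, 1.05 and 0.49 in shMUC1, so the groups overlapped. Its share of the keratin total was 0.0869% ± 0.0441 in control and 0.124% ± 0.0457 in shMUC1. The simple sum was 1890, 1270 and 695 times the basal sum in control libraries and 661, 613 and 1340 times in shMUC1 libraries. A shift between the simple keratins and KRT5, KRT14 and KRT17, in either direction, was thus not detectable at this depth, because these basal keratins had so few counts. KRT15, a chain of basal keratinocytes, was not part of the basal sum. Its log2 fold change was 1.6, beside 0.95 for KRT8 and 1.02 for KRT18, and the difference was not tested.

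Among the 45 keratins outside the set, 26 had no count in any library and 5 were tested. Of these 5, 4 were higher and 0 lower by the same threshold, beside 25.2% and 23.6% of all tested genes. The largest difference was in KRT6A, a type II chain of wounded and stressed epidermis. It had 2, 4 and 2 counts in control and 195, 167 and 96 counts in shMUC1. The mean was 0.111 ± 0.0466 CPM in control and 6.23 ± 0.973 CPM in shMUC1 (SD, n = 3 each), with a log2 fold change of 5.76 (SE 0.331, edgeR adjusted p = 3.56e-17). With 8 control counts in all, the ratio of summed counts of 57.3 had a 95% counting interval from 28.9 to 134. KRT16, the type I chain that pairs with KRT6A, had 4, 4 and 8 counts and then 15, 30 and 8 counts, a log2 fold change of 1.69 (SE 0.545, edgeR adjusted p = 0.00965) that also rested on few counts. KRT6A and KRT16 passed the low-count filter through the shMUC1 libraries alone, as KRT17 did.

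KRT6A has near-identical neighbors, so the sequence decides which gene its reads belong to. KRT6A is 97.5% identical to KRT6B and 97.9% identical to KRT6C over 1692 coding bases, with 42 and 35 differing bases. KRT6B had 2 counts in all, both in shMUC1. KRT6C had 0, 0 and 0 counts in control and 5, 10 and 2 counts in shMUC1. Set against the floor of 3 counts over the control group, its 17 shMUC1 counts gave a ratio of 5.68. This ratio leaves out the counting error of the 17 counts and the spread between libraries, so it is not a lower bound. KRT6A shares 35.2% of its windows with KRT6C, and whether the KRT6C counts came from KRT6A reads was not tested. Coding bases 663 to 722 are one of the stretches that tell the copies apart, with capitals at bases that differ from KRT6A (GENCODE 29).
KRT6A: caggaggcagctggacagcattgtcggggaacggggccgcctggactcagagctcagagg
KRT6B: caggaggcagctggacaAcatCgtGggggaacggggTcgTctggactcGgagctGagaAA
KRT6C: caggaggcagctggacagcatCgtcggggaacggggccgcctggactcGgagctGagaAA

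KRT15, KRT34 and KRT10 complete the keratins with a mean of at least 10 counts. KRT15, a type I chain of basal keratinocytes, had 33, 53 and 46 counts in control and 126, 165 and 106 counts in shMUC1, and rose from 1.82 ± 0.337 to 5.55 ± 0.932 CPM (SD, n = 3 each) with a log2 fold change of 1.6 (SE 0.203, edgeR adjusted p = 2.5e-08). KRT34, a type I hair keratin, had 26, 12 and 30 counts against 96, 138 and 66 counts, with a log2 fold change of 2.13 (SE 0.28, edgeR adjusted p = 4.91e-08). Both had shMUC1 libraries above all control libraries. KRT10, the type I chain of differentiating epidermis, did not pass the test, at 8.88 ± 0.449 CPM in control and 7.56 ± 0.296 CPM in shMUC1 (SD, n = 3 each). Its control libraries all lay above the shMUC1 libraries, but its log2 fold change was -0.23 (SE 0.123, edgeR adjusted p = 0.129). Over all 55 keratins, 10 were tested, 8 were higher and 0 lower, beside 25.2% and 23.6% of all tested genes. Of these 8, 3 could be tested only through their shMUC1 counts.

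**Figure D3:**
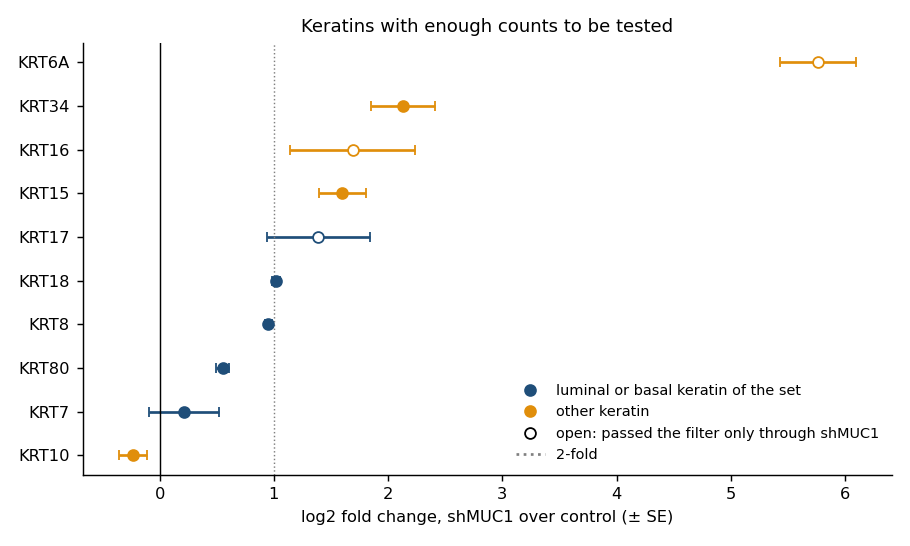
Log2 fold change of shMUC1 over control (horizontal axis, bars are SE) for the 10 tested keratins, with the genes of the set in blue and other keratins in orange. Open symbols passed the low-count filter through shMUC1 libraries alone, and the dotted line marks 2-fold. KRT8 at 0.95 and KRT18 at 1.02 have the narrowest bars and lie on either side of the dotted line, and KRT6A lies farthest out at 5.76.

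**Figure D4:**
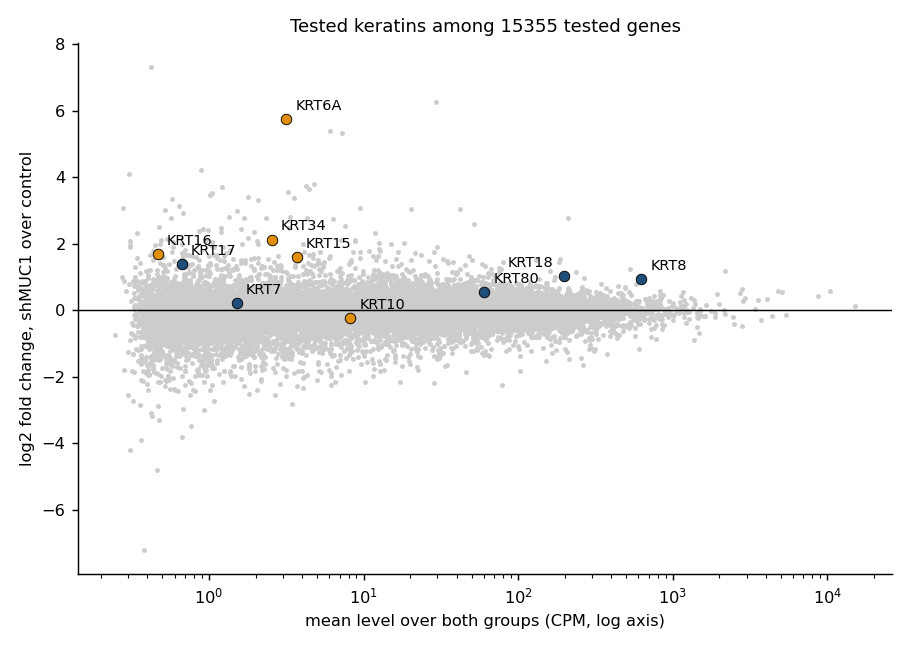
Log2 fold change of shMUC1 over control against the mean level of both groups (CPM, log axis) for all 15355 tested genes (light grey), with the tested keratins of the set in blue and other keratins in orange. KRT8 and KRT18 sit near the upper edge of the cloud at their high level, whereas KRT7 and KRT10 lie within it near 0.

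The genes whose pattern over the 6 libraries lay nearest to each abundant keratin were sought among 12211 genes, as the root mean square (RMS) difference of centered log2 CPM. Nearest to KRT8 were FAM160A1 (0.0154), HOXA10 (0.0232), a homeobox transcription factor, and OCLN (0.0318), which encodes the tight junction protein occludin. KRT18 was the 4th nearest gene to KRT8, at an RMS difference of 0.0379. Nearest to KRT18 were ITGA2 (0.0323), the collagen-binding integrin alpha2 chain, then KRT8 (0.0379) and OCLN (0.0389). All of these genes had log2 fold changes from 0.95 to 1.03, and with 6 libraries in 2 groups the measure follows mainly the size of the group difference. KRT80 lay nearest to R3HDM4 (0.0302), RMND5A (0.0308) and LNX2 (0.0356).

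Keratin filaments end at desmosomes, which join cells, and at hemidesmosomes, which hold cells to the basement membrane. Of 24 genes that encode these anchors and related keratin binding proteins, 20 were tested, 12 were higher and 4 lower, where 25.2% of all tested genes were higher and 23.6% lower. The median log2 fold change was 0.33, beside 0.000583 over all tested genes. Apart from genes added as checks, those named from this and the next lists are among the largest rises and falls. Each of those passed an adjusted p under 0.05. DSP, the desmoplakin that ties keratins to the desmosome, was at 97.2, 97.5 and 101 CPM in control and 284, 258 and 269 CPM in shMUC1. It rose with no overlap, by a log2 fold change of 1.46 (SE 0.0394, edgeR adjusted p = 4.2e-27). COL17A1, the collagen of hemidesmosomes, was at 0.28 ± 0.044 CPM in control and 11.8 ± 0.0766 CPM in shMUC1 (SD, n = 3 each), and the log2 fold change was 5.38 (SE 0.219, edgeR adjusted p = 1.28e-21), but it had 6 or 7 counts per control library and passed the filter through shMUC1 alone. The falls were smaller. DSC3, a desmosomal cadherin, fell by 0.47 and DST, a plakin of hemidesmosomes, by 0.39 on the log2 scale (edgeR adjusted p = 1.14e-06 and 2.34e-12).

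Vimentin, the intermediate filament of mesenchymal cells, moved against KRT8 and KRT18. VIM was at 718, 744 and 692 CPM in control and 411, 445 and 395 CPM in shMUC1. It fell with no overlap from 718 ± 26 to 417 ± 25.2 CPM (SD, n = 3 each), and the log2 fold change was -0.78 (SE 0.0349, edgeR adjusted p = 2.1e-20). Of 16 other intermediate filament genes, 8 were tested, 2 were higher and 2 lower, shares near those of all tested genes (25.2% and 23.6%), with a median log2 fold change of 0.0251. SYNM, which binds vimentin and desmin, fell by 0.82 on the log2 scale, and the nuclear lamins LMNB1 and LMNA rose by 0.17 and 0.1.

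Transcription factors known to act on keratin genes or on the epithelial state were called about as often as other genes. Of 25 such genes, 21 were tested, 6 were higher and 5 lower, beside 25.2% and 23.6% of all tested genes, with a median log2 fold change of 0.11. ZEB2, a repressor of epithelial genes, was at 160, 166 and 156 CPM in control and 47, 45.3 and 43.4 CPM in shMUC1, a log2 fold change of -1.83 (SE 0.0452, edgeR adjusted p = 4.16e-28). Its relative ZEB1 fell by 0.97 on the log2 scale. ELF3, an epithelial factor, rose by 2.09 from 3.35 ± 0.537 to 14.3 ± 1.16 CPM (SD, n = 3 each), and SNAI2, another repressor of epithelial genes, rose by 1.14, opposite to ZEB1 and ZEB2. TP63, the factor of basal cells, was at 0.863 ± 0.595 CPM in control and 1.01 ± 0.149 CPM in shMUC1 with an edgeR adjusted p of 0.695, and GRHL2 had no count in any library (limit of 0.161 CPM at the lowest depth).

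The markers that accompany the luminal and basal keratins in the breast were examined next. Of 20 luminal markers, 11 were tested, 4 were higher and 5 lower, where 25.2% and 23.6% of all tested genes were so, and the median log2 fold change was 0.0234. EPCAM, an epithelial adhesion protein, rose by 2.12 and GATA3, a luminal transcription factor, by 0.88, while CLDN3, a tight junction protein, fell by 1.31 on the log2 scale. The label of a triple-negative line was met at the RNA level by the hormone receptors: ESR1 had at most 12 counts and PGR at most 4 counts in any library. TFF1, TFF3, SPDEF and ELF5, further luminal genes, had 0 counts in all 6 libraries. Of 22 basal and myoepithelial markers, 19 were tested, 11 were higher and 5 lower, against the same 25.2% and 23.6%, with a median of 0.46. TP63, ITGA6 and ITGB4 of these are also in a list above. TRIM29, a gene of basal breast cells, was at 14.7 ± 1.02 CPM in control and 88.5 ± 2.4 CPM in shMUC1 (SD, n = 3 each), and the log2 fold change was 2.6 (SE 0.0634, edgeR adjusted p = 3.71e-28). MYLK and OXTR, both used by contractile myoepithelial cells, fell by 0.54 and 0.41. Other contractile genes of the list did not follow them. ACTA2 rose by 0.59 (edgeR adjusted p = 0.0226), TAGLN did not pass at -0.12 (edgeR adjusted p = 0.691), and CNN1 had too few counts to be tested.

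Genes of stratified epithelium and keratinocytes were mostly silent, with 7 of 22 at 0 counts in all libraries and 6 tested, of which 3 were higher and 1 lower beside 25.2% and 23.6% of all tested genes (median log2 fold change 0.76). SFN, which encodes stratifin, a regulatory protein of stratified epithelia, was at 1, 0.657 and 0.658 CPM in control and 59.1, 60.5 and 55.7 CPM in shMUC1, a log2 fold change of 6.25 (SE 0.122, edgeR adjusted p = 3.46e-31). CNFN, a cornified envelope protein, rose by 1.36, and FLG, the filaggrin that bundles keratins, fell by 0.59 on the log2 scale. As a check on other cells in the libraries, 16 stromal and leukocyte markers were examined. COL1A2, DCN, LUM, CD3E and HBB had 0 counts in all 6 libraries. Of the 16 genes 6 were tested, with 2 higher and 3 lower beside 25.2% and 23.6% of all tested genes (median log2 fold change -0.71). Of the 2 higher, 1 could be tested only through its shMUC1 counts. The summed level of the 16 genes was 14.2 to 17 CPM in control and 10.5 to 13.4 CPM in shMUC1. This was opposite in direction to the keratins, and its part in the keratin values was not tested. CD14 rose by 1.08, COL3A1 fell by 1.82 and COL1A1 fell by 0.6 with overlapping libraries (edgeR adjusted p = 0.0417).

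**Figure D5:**
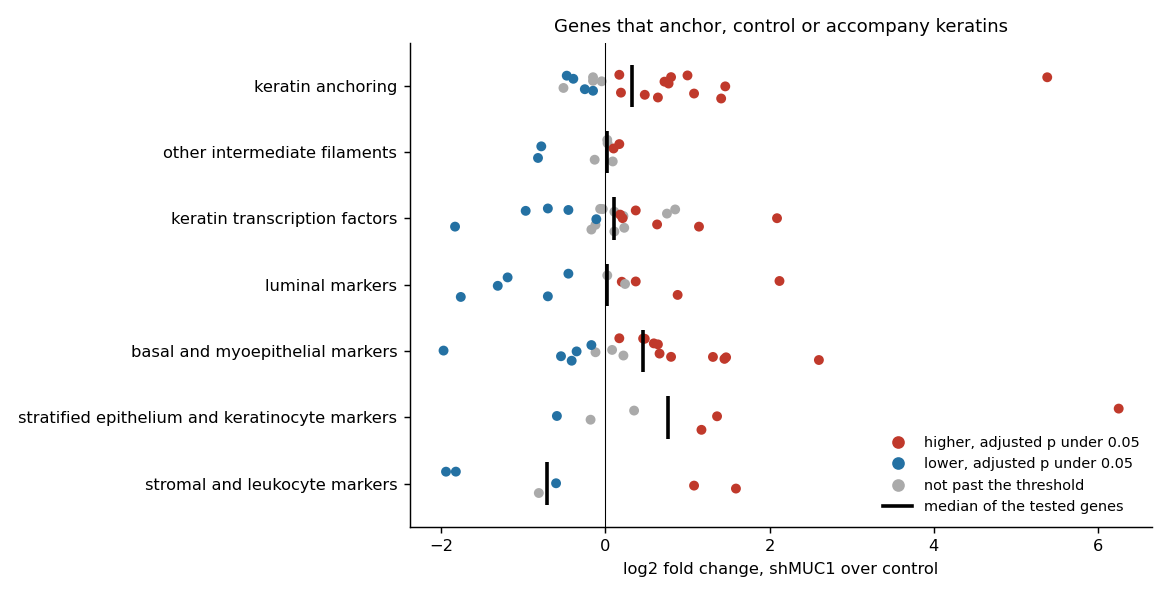
Log2 fold change of shMUC1 over control for each tested gene of 7 lists that anchor, control or accompany keratins. Red points were higher and blue points lower at an adjusted p under 0.05, grey points did not pass, and black lines are medians of the tested genes, 0.33 for keratin anchoring, 0.46 for basal and myoepithelial markers and 0.0234 for luminal markers; the vertical place within a list has no meaning.

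RefSeq promoter windows (GRCh38.p14, 300 bases around an annotated start) matched 2 of the 10 genes, KRT5 and KRT8. The windows were searched on both strands for 6 words. Of all 35116 promoter windows, TATAAA is in 11.5%, GGGCGG in 45%, TGACTCA in 4.95%, CACCTG in 20.6%, GCCNNNGGC in 23.2% and AACCGGTT in 0.134%. The KRT8 window, chr12:52926420-52926719 on the minus strand, lies inside the annotated span of the gene and held none of the 6. The KRT5 window, chr12:52520345-52520644 on the minus strand, held 1 of the 6, CACCTG, a word that ZEB and SNAI repressors bind. A match describes these letters and no more.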

How the data were processed

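Cells were grown in triplicate and libraries were made from total RNA with the TruSeq Stranded mRNA kit, per the labels. The submitters' processing notes name CASAVA 1.8.2, STAR 2.7.9a, featureCounts, DESeq2 1.24.0 and the build GRCh38.p7. How multiply matching reads, strand and read pairs were counted is not given in the sources used here. In 1 deposited table, each row is a gene symbol and each of 6 columns holds the raw read counts of a library. Replicates are separate samples per the labels, and p-values measure the spread between these libraries only.

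From the counts, genes that passed filterByExpr of edgeR 4.0.16 (R 4.3.3) were fitted with TMM scaling and the quasi-likelihood test, with the group as the only term, and two-sided p-values were Benjamini-Hochberg adjusted over the 15355 genes tested. Calls used an adjusted p under 0.05, alone or with a fold change over 2. CPM used TMM-scaled library sizes, and SE came from the F statistic. Levels per kilobase used the principal GENCODE 29 transcript. Library totals of 18678307 to 27825546 counts set the precision of low genes. For genes with few counts, ratios of summed counts were given with exact conditional 95% intervals. The fit was also run on simulated counts, drawn separately for each gene and library. That run held no pairs of counted mates and no reads shared between genes, so it does not cover those limits.

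Named genes were all 10 members, other keratins at a mean count of 10 or more, MUC1, from each other list the 2 largest called rises and the 2 largest called falls at a mean count of 50 or more, and the 3 genes nearest in pattern to each member of that mean count. Of the genes this rule names, 2 are not reported here, but they are in the counts and medians of their lists. ESR1, PGR, TP63, GRHL2, ACTA2, TAGLN, CNN1, KRT6B, KRT6C, the pseudogenes and genes at 0 were added to these as checks. The keratins and the 13 lists were chosen with earlier results of these data known. Alternatives were scaling by library totals or by DESeq2 size factors, no filter or a mean count of 50 or more, limma-voom (limma 3.58.1), DESeq2 1.42.0, a replicate block, halved counts, a fold change over 1.5, each library left out and, for levels, no division by length. Adding pseudogene counts to KRT8 and KRT18 was chosen after seeing the data.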

Additional observations from a re-analysis of the deposited data

How the results depend on the processing

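Under every alternative run, 0 of the keratins tested were called lower at an adjusted p under 0.05, and KRT8, KRT18 and KRT80 were called higher. In the main fit, 23.6% of all tested genes were lower and 25.2% higher. Without a filter KRT19 had a log2 fold change of -3.55 but was not called (edgeR adjusted p = 0.316). KRT8 ranged from 0.92 to 0.97 on the log2 scale, KRT18 from 0.98 to 1.04, KRT80 from 0.49 to 0.59 and MUC1 from -1.02 to -0.75. KRT7 stayed without a call, from 0.0762 to 0.41. The count of keratins higher with a fold change over 2 was 2, and it was 1 at a mean count of 50 or more and 1 with counts halved, both of which left KRT17 under the filter. With each library left out it ranged from 1 to 2, and was 1 without control replicate 1, control replicate 2 or shMUC1 replicate 1, the libraries without which KRT17 lost its call. It was 3 with a fold change over 1.5 as the threshold. With pseudogene counts added, KRT18 was at 0.98, under 2-fold. KRT17 ranged from 1.22 to 1.77, with an adjusted p from 0.00802 to 0.0656. Without division by length, the type I sum per type II sum was 0.301 in control and 0.316 in shMUC1, and KRT8 with KRT18 held 89.7% and 91.6% of the keratin total. The median log2 fold change of all genes moved farthest to -0.0217, with library totals only.

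The deviations of libraries that share a replicate number had correlations of 0.0167, -0.0311 and -0.0359, so no effect shared by replicate number was seen. These values cannot show whether cultures with the same number were handled together. With a replicate block, 4 of the 10 keratins were higher, 2 of these over 2-fold, and 3885 genes in all were higher and 3591 lower. Depth limits KRT5, KRT14, KRT19, KRT81 and KRT86 most, at 19 counts or fewer in every library.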
